A study of Mus musculus with 2 samples.

Results

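The proteasome genes described here were taken from the array by symbol: every gene whose symbol begins with Psm, then one of the letters a to g, then a number, on probe sets that the platform annotation assigns to exactly 1 gene. One beta gene was left out. The rule found 47 genes among 19938, and it used no measured value. By symbol they fall into 8 core alpha genes, 10 core beta genes, 6 ATPase genes, 14 non-ATPase genes, 4 activator genes, 1 inhibitor gene and 4 assembly genes. Their transcripts were compared in KSL cells of Nrf2 KO mice and of wild-type mice, both on the C57BL/6J background and 8 to 10 weeks old. KSL cells are the marrow fraction that is negative for lineage markers and positive for Sca-1 and c-Kit, and it is rich in blood stem cells and multipotent progenitors. Marrow of 5 mice per genotype was pooled before sorting, and 1 RNA pool per genotype was amplified and hybridised to 1 Mouse Gene ST 1.0 array. Each gene therefore has 1 knockout and 1 wild-type value, no replicate spread exists, and no test between genotypes was possible. No label names the deleted segment of the gene.

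The proteasome is the protease that breaks down proteins tagged with ubiquitin. Its barrel-shaped core has outer rings of alpha subunits, which gate the entrance, and inner rings of beta subunits, some of which cut peptide bonds. A regulatory cap on the end of the barrel has a base, where a ring of ATPases unfolds the substrate, and a lid, where ubiquitin is removed. Other activators can replace the cap, and dedicated chaperones put core and base together. NRF2, encoded by Nfe2l2, is a transcription factor that binds antioxidant response elements, and proteasome subunit genes are among those it is known to induce under oxidative stress. Its relative NFE2L1 restores proteasome gene expression when proteasome activity is blocked. In blood stem cells, protein synthesis is kept low and protein quality is closely controlled.

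Values are log2 intensities, and a difference is Nrf2 KO minus wild type on that scale. A gene passed the level filter when its mean over both arrays was at least 6.57, the median over all 19938 genes, and 9970 genes passed. Over these genes the median difference was −0.02, and the middle 95% lay between −0.73 and 0.57. The 515 genes read by exactly 2 probe sets put the error of 1 gene's difference at an SD of 0.31, or 0.17 by a robust estimate. This covers the behaviour of probes and leaves out animals, sorts and amplifications. Intensities of different probe sets are not on a common scale, so levels are compared within a gene only.

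The KSL markers were present on both arrays, and all 8 measured of 10 listed passed the filter, with Kit at 11.21 in KO cells against 10.93 in wild-type cells. By direction, 4 of the 8 were higher and 4 lower in the knockout pool, with a median difference of 0.05. Mecom was the lowest, at −0.45. The targeted gene Nfe2l2 was at 9.07 in KO cells against 9.16 in wild-type cells, a difference of −0.09, and a probe set outside the deleted part would not check the genotype. Markers of neutrophils, which a KSL gate should remove, differed between the pools. All 14 neutrophil markers past the filter, of 16 measured, were lower in the knockout pool, with a median difference of −1.54. Of these, Retnlg, Mmp8, Cxcr2 and Il1r2 were below 6.57 in KO cells and passed only through their wild-type values. Of the markers that did not pass, Mmp9 was lower and Ly6g higher in the knockout pool. The summed linear intensity of the 16 was 7544 in KO cells against 17823 in wild-type cells, and the defining surface marker Ly6g was low in both, at 5.41 and 4.90. Of 9 monocyte and macrophage markers, 6 passed the filter, 5 of them lower, with a median of −0.73 and summed intensities of 1954 in KO cells against 2648 in wild-type cells. Among the 6, Ccl6 and Fn1 likewise passed only through their wild-type values, and the markers that did not pass were all lower. Both lists were lower in the same knockout array as the proteasome genes below, and their part in the differences was not tested. In RNA from pooled cells, fewer cells of a type and less RNA per cell cannot be told apart.

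Most proteasome genes were slightly lower in the knockout pool. Of the 47 genes, 46 passed the level filter, and 35 of these 46 (76.1%) had a difference below 0, where 52.9% of all genes past the filter did. The median difference of the 46 was −0.12, or 92.1% of the wild-type intensity, beside −0.02 for all genes. The differences were small for single genes. At a size of at least 1.2-fold, 11 members (23.9%) were lower, near the 19.3% of all genes, and 2 (4.35%) were higher, where 12.8% of all genes were. At 1.5-fold, 2 members were lower, beside 4.30% of all genes, and 1 was higher, beside 2.34%. At 2-fold, 1 member was lower, beside 0.762% of all genes, and 0 were higher, beside 0.411%. The middle 50% of the members lay between −0.25 and −0.02, and that of all genes between −0.20 and 0.14.

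**Figure D1:**
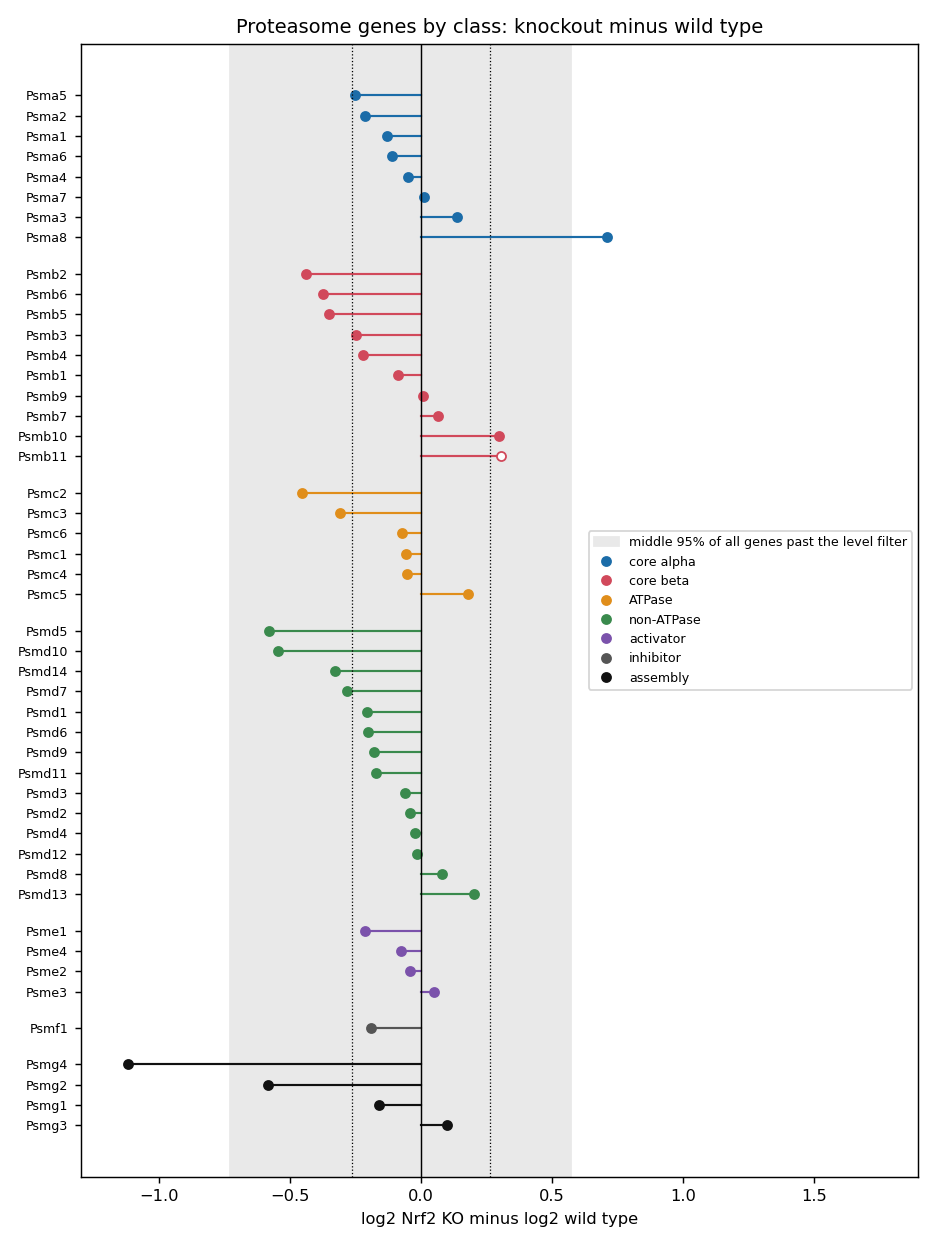
Difference between the pools (log2 Nrf2 KO minus log2 wild type, horizontal axis) of each of the 47 proteasome genes, grouped and coloured by class. The grey band is the middle 95% of all genes past the level filter, dotted lines mark 1.2-fold, and the open circle is Psmb11, below the filter. Of the 46 filled points 35 lie left of 0, and Psmg4 and Psma8 lie outside the band.

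The 31 subunits of the standard core and cap together had a median of −0.11. By direction, 25 (80.6%) were lower, beside 52.9% of all genes, and 6 were higher. The core part of these, 14 genes, had a median of −0.17, and the cap part, 17 genes, one of −0.06. All 31 lay between −0.45 and 0.20, so 0 of them reached 1.5-fold in either direction. Among the 4985 genes past the 75th percentile of level, 8.07, the share lower in the knockout pool was 53.6% and the median −0.02.

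**Figure D2:**
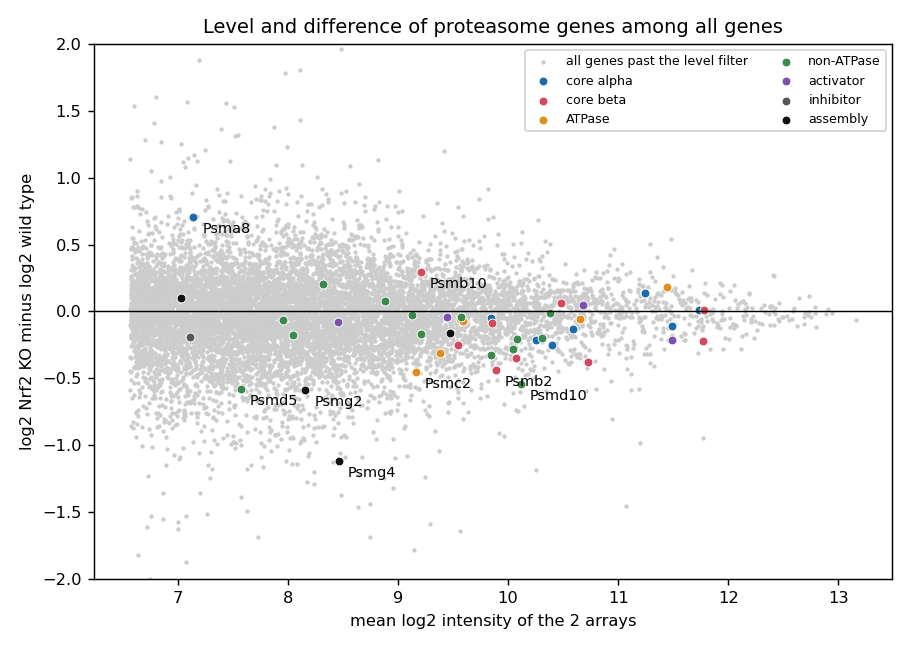
Mean log2 intensity of both arrays (horizontal axis) and log2 Nrf2 KO minus log2 wild type (vertical axis) for the 9970 genes past the level filter in grey and the 46 proteasome genes in colour. The axis stops at 2 in each direction, which leaves out 16 genes. Most coloured points lie just under 0, with Psmg4 far below and Psma8 above.

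The core alpha genes had a median of −0.08 over 8 genes. By direction, 5 (62.5%) were lower, beside 52.9% of all genes, and 3 were higher. At the level filter of the 75th percentile, which takes out Psma8, the median of the other 7 was −0.11, near that of all members. Psma8, which encodes the alpha subunit of the testis proteasome, was at 7.50 in KO cells against 6.79 in wild-type cells, a difference of 0.71 or 1.63-fold higher. It was the highest of all members, at percentile 98.7 of all genes, and its low intensity makes the size less sure. The other 7 are the ubiquitously used alpha subunits, which form the outer ring and its gate. Psma5 was at 10.27 in KO cells against 10.52 in wild-type cells, a difference of −0.25. Psma2 was at 10.14 and 10.36, a difference of −0.21.

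Psma1 and Psma6 were lower by less, with differences of −0.13 and −0.11, and Psma4, whose product helps close the gate, differed by −0.05. Psma7 was at 11.74 in KO cells against 11.72 in wild-type cells. Psma3 was at 11.31 in KO cells against 11.17 in wild-type cells, a difference of 0.14. Its 3 probe sets carry the same transcript accessions and all were higher, by 0.09 to 0.18. The 2 probe sets of Psma5 were likewise of one sign, at −0.20 and −0.31. Whether extra probe sets read the parent gene or a near-identical copy elsewhere was not tested.

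Core beta genes were lower by more, with a median of −0.22 over the 9 genes past the filter. Of the 9, 6 (66.7%) were lower, beside 52.9% of all genes. The structural beta subunits, which build the inner ring without cutting peptides, were lower as a set of 4, with a median of −0.23. Psmb2 was at 9.67 in KO cells against 10.11 in wild-type cells, a difference of −0.44, the lowest of all core genes. Psmb3 was at 9.43 and 9.67, a difference of −0.25, with its 2 probe sets at −0.21 and −0.29. Psmb4 was at 11.66 and 11.88, a difference of −0.22. Psmb1 was the nearest to level of the 4, at −0.09.

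Of the 3 catalytic beta subunits of the standard core, 2 were lower and 1 was slightly higher. Psmb6, the caspase-like subunit, was at 10.54 in KO cells against 10.91 in wild-type cells, a difference of −0.38 or 77.1% of wild type. Psmb5, the chymotrypsin-like subunit and main target of proteasome inhibitor drugs, was at 9.90 and 10.25, a difference of −0.35 or 78.5%. Psmb7, the trypsin-like subunit, was at 10.52 in KO cells against 10.45 in wild-type cells, a difference of 0.06. Psmb6 and Psmb5 lay at percentiles 11.4 and 12.8 of all genes, within the range where many genes of the array lie.

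Interferon and blood cell identity raise alternative catalytic subunits that take the place of the standard ones and favour peptides for antigen presentation. Psmb9, which replaces Psmb6, was level, at 11.79 in KO cells against 11.78 in wild-type cells. Psmb10, which replaces Psmb7, was at 9.36 in KO cells against 9.06 in wild-type cells, a difference of 0.30 or 1.23-fold higher. The difference of Psmb9 was thus 0.38 above that of Psmb6, and the difference of Psmb10 was 0.23 above that of Psmb7. Neither gap was tested, and the probe-set error of each single difference is 0.31. Psmb11, the beta subunit of the thymus proteasome, was below the filter, at 6.46 in KO cells against 6.15 in wild-type cells.

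Of the 6 ATPase genes 5 (83.3%) were lower, beside 52.9% of all genes, and 1 was higher, with a median of −0.07. They encode the ring of the base that unfolds substrates and threads them into the core. Psmc2 was at 8.94 in KO cells against 9.39 in wild-type cells, a difference of −0.45 or 73.1% of wild type, the lowest of the standard core and cap subunits. Psmc3 was at 9.22 and 9.53, a difference of −0.31. Psmc6, Psmc1 and Psmc4 were close to level, at −0.07, −0.06 and −0.06. Psmc5 was at 11.54 in KO cells against 11.36 in wild-type cells, a difference of 0.18.

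The near-level value of Psmc1 hides probe sets of opposite sign. One was at 10.81 in KO cells against 11.06 in wild-type cells, a difference of −0.25. The other was at 10.45 in KO cells against 10.31 in wild-type cells, a difference of 0.14. With the brighter probe set alone for each gene, the median of the ATPase genes was −0.16.

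Of the 14 non-ATPase genes 12 (85.7%) were lower, beside 52.9% of all genes and 83.3% of the ATPase genes. The median was −0.18, and without the 3 base chaperones described below it was −0.06. The 3 genes for the base scaffold and a ubiquitin receptor were lower, with a median of −0.04. However, Psmd4 was at 0 under quantile normalization and just above 0 under loess on level. Psmd1, a large scaffold subunit, was at 9.98 in KO cells against 10.18 in wild-type cells, a difference of −0.21. Psmd2, the other large scaffold subunit, differed by −0.04, and Psmd4, a receptor for ubiquitin chains, by −0.02.

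Of the 8 lid genes 6 (75%) were lower, beside 52.9% of all genes, and 2 were higher, and the median was −0.12. Psmd14, the deubiquitinase that removes ubiquitin chains as a substrate enters, was the lowest of them, at 9.68 in KO cells against 10.00 in wild-type cells, a difference of −0.33. Its inactive partner in the lid, Psmd7, was at 9.91 and 10.19, a difference of −0.28. These were the 2 lid genes (25%) at least 1.2-fold lower, beside 19.3% of all genes. However, Psmd7 fell just short of that size under median centring and quantile normalization, at −0.26 in each. Psmd6 differed by −0.20, Psmd11 by −0.17, Psmd3 by −0.06 and Psmd12 by −0.02, the last with a sign that turned under median centring, quantile normalization and loess. Psmd13 was at 8.42 in KO cells against 8.22 in wild-type cells, a difference of 0.20, and Psmd8 differed by 0.08. Both sat on the opposite side of 0 from the rest of the lid.

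The activators were level as a class, with a median of −0.06 over 4 genes between −0.21 and 0.05. Psme1, one of the paired chains of the interferon-induced ring activator, was at 11.38 in KO cells against 11.60 in wild-type cells, a difference of −0.21. Its partner Psme2 was at 9.42 and 9.47, a difference of −0.04. A further probe set, annotated to both Psme2 and Psme2b and therefore outside the rule, was at 9.37 in KO cells against 9.18 in wild-type cells, a difference of 0.18, so the direction of Psme2 is uncertain. Psme3, the nuclear member of the same family, differed by 0.05. Psme4, a single-chain activator of the core, differed by −0.08. Psmf1, which encodes an inhibitor of the isolated core, was at 7.02 in KO cells against 7.21 in wild-type cells, a difference of −0.19.

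The assembly genes held the lowest values of the family. Their median was −0.37 over 4 genes, with 3 (75%) lower, beside 52.9% of all genes, and without Psmg4 it was −0.16. Psmg1 to Psmg4 encode chaperones that work in pairs, Psmg1 with Psmg2 and Psmg3 with Psmg4, to build the alpha ring. Psmg4 was at 7.90 in KO cells against 9.02 in wild-type cells, a difference of −1.12 or 2.17-fold lower, at percentile 0.522 of all genes. It was the only member at least 2-fold different. Its partner Psmg3 was at 7.08 in KO cells against 6.97 in wild-type cells, a difference of 0.10. Psmg2 was at 7.87 in KO cells against 8.45 in wild-type cells, a difference of −0.59 or 66.7% of wild type. Its partner Psmg1 was at 9.39 and 9.55, a difference of −0.16. In each pair, then, 1 gene was lower by more than 1.2-fold and the other was within that size. Psmg3 had a low mean level of 7.03, below the 75th percentile of 8.07, which makes its difference less sure. Psmg2 was just past the 1.5-fold size and fell short of it under median centring, quantile normalization and loess, at −0.56 in each. All 4 are read by 1 probe set each.

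The chaperones of the base carry non-ATPase symbols although they leave the finished cap, and they too were lower. Psmd5 was at 7.28 in KO cells against 7.86 in wild-type cells, a difference of −0.58 or 66.8% of wild type. Psmd10, also known as the oncoprotein gankyrin, was at 9.85 in KO cells against 10.39 in wild-type cells, a difference of −0.54 or 68.5%. Psmd9 was at 7.96 and 8.14, a difference of −0.18. Counted with the assembly genes, they made 7 chaperone genes with a median of −0.54, each read by 1 probe set. Of the 7, 6 were lower, beside 52.9% of all genes, and 4 were at least 1.2-fold lower, beside 19.3%. With Pomp, the maturation factor for the beta ring, as an eighth gene the median was −0.36. The other 39 members past the filter had a median of −0.08, with 29 lower, and the remaining 11 non-ATPase genes one of −0.06. Pomp, which the symbol rule does not take, was at 10.95 in KO cells against 11.05 in wild-type cells, a difference of −0.10. The grouping of the base chaperones with the assembly genes follows their function and was planned as an alternative, with earlier results of these arrays known.

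**Figure D3:**
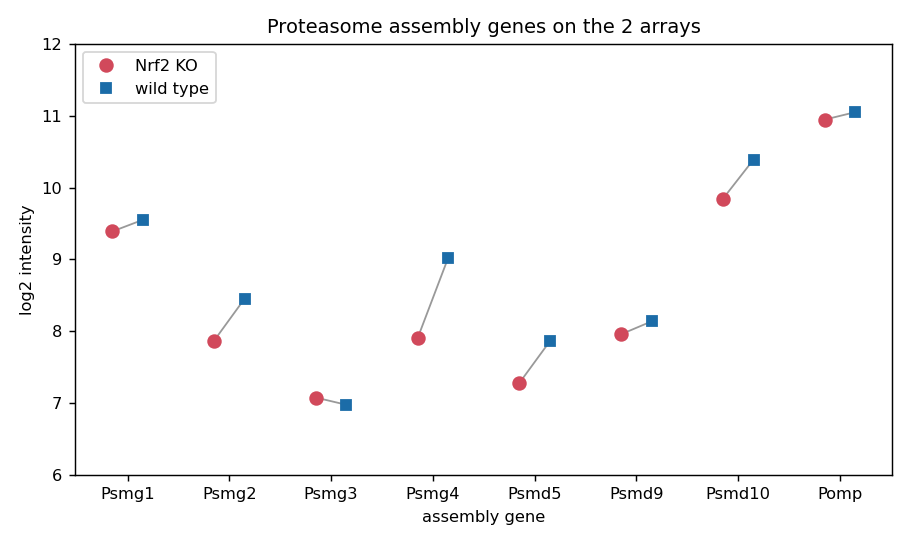
Log2 intensity (vertical axis) of 8 proteasome assembly genes on the Nrf2 KO array (circles, left) and the wild-type array (squares, right), 1 array each. Levels are comparable within a gene only. Psmg4 has the steepest line, Psmg2, Psmd5 and Psmd10 differ by −0.59 to −0.54, and Psmg3 is slightly higher in the knockout pool.

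The promoters of the chaperone genes with the lowest values are shown because these members had the largest differences among those with a promoter entry. The 250 bases before the annotated start are given 5′ to 3′ from the RefSeq table of build GRCm38.p6, with each GC box (GGGCGG on either strand) in capitals. Psmg4 lies on the plus strand at chr13:34162714-34162963, Psmd5 on the minus strand at chr2:34870963-34871212 and Psmd10 on the minus strand at chrX:140956712-140956961.
Psmg4: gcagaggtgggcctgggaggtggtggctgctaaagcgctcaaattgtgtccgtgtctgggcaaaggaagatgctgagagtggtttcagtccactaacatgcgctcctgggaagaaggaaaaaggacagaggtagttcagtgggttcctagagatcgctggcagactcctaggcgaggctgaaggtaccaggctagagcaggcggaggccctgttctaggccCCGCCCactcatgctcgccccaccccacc
Psmd5: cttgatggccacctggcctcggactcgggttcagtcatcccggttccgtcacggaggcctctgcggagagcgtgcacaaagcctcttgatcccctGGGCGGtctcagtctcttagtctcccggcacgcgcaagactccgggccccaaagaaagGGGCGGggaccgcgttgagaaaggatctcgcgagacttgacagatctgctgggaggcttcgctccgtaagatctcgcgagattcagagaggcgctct
Psmd10: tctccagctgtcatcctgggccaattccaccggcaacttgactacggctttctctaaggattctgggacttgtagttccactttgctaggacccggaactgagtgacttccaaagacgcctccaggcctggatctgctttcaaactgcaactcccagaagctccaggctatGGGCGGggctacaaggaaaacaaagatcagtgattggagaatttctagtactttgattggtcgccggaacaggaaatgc
The antioxidant response element core TGACNNNGC is not among the letters of these 3 windows.

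Promoter windows of 250 bases before and 50 after the start were matched by symbol for 39 of the 47 genes, all but Psma8, Psmb1, Psmb2, Psmb7, Psmc3, Psmd3, Psmd7 and Psmg2, and searched for 5 motifs on both strands, where matches of different motifs may overlap. The core TGACNNNGC was in 6 of 39 windows (15.4%), near its share of 16.8% in the windows of 8063 genes past the level filter and of 13.99% in all 27025 genes. Each match is shown with up to 15 bases on either side, 5′ to 3′ along the gene's own strand and with the core in capitals, since NRF2 is the factor that was deleted.
Psmb5: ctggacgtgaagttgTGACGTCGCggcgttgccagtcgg
Psmb6: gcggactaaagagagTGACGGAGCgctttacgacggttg
Psmd9: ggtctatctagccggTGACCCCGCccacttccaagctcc
Psme4: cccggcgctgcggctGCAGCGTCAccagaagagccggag
Psmc6: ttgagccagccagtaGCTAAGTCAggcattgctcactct
Psmd12: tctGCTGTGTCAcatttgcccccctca
The stretches lie at chr14:54618019-54618057 on the minus strand for Psmb5, and on the plus strand at chr11:70525333-70525371 for Psmb6, chr5:123228144-123228182 for Psmd9, chr11:30771753-30771791 for Psme4, chr14:45329582-45329620 for Psmc6 and chr11:107479278-107479304 for Psmd12. In Psmb5, Psmb6 and Psmd9 the core reads along the gene, starting 47, 9 and 31 bases before the transcription start, and in the other 3 it reads on the opposite strand. All 6 genes were lower in the knockout pool, where 76.1% of all members and 52.9% of all genes past the filter were. The 6 ranged from −0.38 for Psmb6 and −0.35 for Psmb5 to −0.02 for Psmd12, whose sign turned under median centring, quantile normalization and loess. Their median of −0.13 was close to the −0.11 of the 33 genes without the core.

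Of the other motifs, the ETS-type CCGGAAG was in 14 of 39 windows (35.9%), with a share of 21.3% in genes past the filter. The members with it had a median difference of −0.07 and those without it one of −0.19, and for CCAAT these were −0.08 and −0.16. The interferon-type repeat, GAAA with any 2 bases before a second GAAA, was in 5 windows (12.8%), with a share of 3.65% in genes past the filter. Here the order was the other way, with medians of −0.21 with the repeat and −0.07 without it, as for GC boxes, with −0.13 and −0.08. The 5 genes with the repeat were Psmd4, Psmd9, Psmb3, Psmg4 and Psme1. All 5 were lower in the knockout pool, where 76.1% of all members and 52.9% of all genes past the filter were. However, Psmd4 was at 0 under quantile normalization and just above 0 under loess. GC boxes were in 23 windows (59.0%), with a share of 69.2% in genes past the filter, and CCAAT in 14 (35.9%), with 42.7%. A match is a run of letters and shows no binding.

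**Figure D4:**
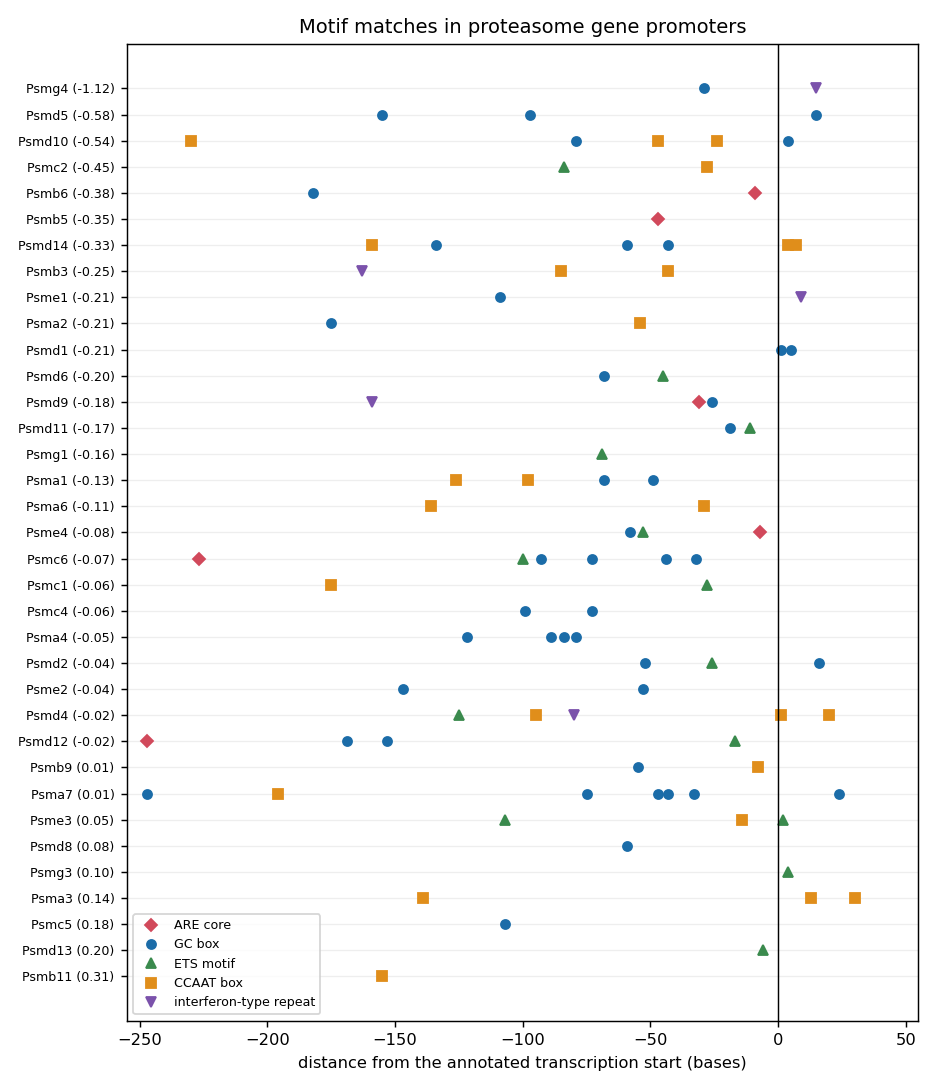
Matches of 5 motifs in the promoter windows of the 35 proteasome genes with any match, against the distance from the annotated start in bases (horizontal axis). Genes are ordered from the lowest difference at the top to the highest at the bottom, with log2 Nrf2 KO minus log2 wild type in brackets. For a gene with more than 1 window the one of lowest coordinate is drawn. The antioxidant response element cores, drawn as diamonds, lie in 6 rows.

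Genes that work with the proteasome were compared as lists. Accessory and maturation factors had a median of −0.10 over the 14 measured of 18 listed. By direction, 10 (71.4%) were lower, beside 52.9% of all genes, and 4 were higher. At 1.2-fold, 0 of the 14 were lower, beside 19.3% of all genes, and 1 was higher, beside 12.8%. That gene was Zfand2a, an arsenite-inducible partner of the cap, at 9.12 in KO cells against 8.52 in wild-type cells, a difference of 0.60. Next by size came the ubiquitin ligase Ube3c at −0.25, the shuttle factor Rad23b at −0.23 and the deubiquitinase Uchl5 of the cap at −0.22. The lid subunit Sem1, whose symbol the rule does not take, differed by 0.07.

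Regulators of proteasome genes showed both directions, with a median of −0.09. Of 13 genes 7 (53.8%) were lower, near the 52.9% of all genes, and 6 were higher. Nfe2l1 was at 9.07 in KO cells against 9.37 in wild-type cells, a difference of −0.29, and its relative Nfe2l3 was higher by 0.37. Ngly1, which removes sugars from NFE2L1 so that it can become active, was at 8.07 in KO cells against 8.51 in wild-type cells, a difference of −0.44. Rbx1, the RING subunit of cullin ubiquitin ligases, was the only one at least 1.5-fold different, at −0.70.

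Of 8 ubiquitin and activating enzyme genes listed, 3 were measured on probe sets with 1 symbol. The activating enzyme genes Uba6, Uba3 and Uba7 differed by −0.33, −0.34 and 0.13. Of these, Uba3 and Uba7 serve ubiquitin-like proteins, which is ISG15 for Uba7. The unfoldase system of VCP, which hands substrates to the proteasome, had a median of −0.04 over 10 genes. By direction, 6 (60%) were lower, beside 52.9% of all genes, and 4 were higher. Vcp itself was level, at 10.70 on both arrays. Its cofactors split, with Nploc4 at −0.45 and Ufd1 at −0.28, and with the membrane-linked Faf2 at 0.54 and Derl1 at 0.42.

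Genes of class I antigen processing, which use peptides cut by the proteasome, had a median of 0.09 over 10 measured of 11 listed, with 8 higher and 2 lower, where 46.5% of all genes were higher. The transcription factor Irf1 was at 8.91 in KO cells against 8.54 in wild-type cells, a difference of 0.37. The peptide-loading chaperone Tapbp was higher by 0.26, the class I regulator Nlrc5 by 0.22, and the peptide-trimming enzyme Erap1 differed by −0.19. At 1.2-fold 1 of the 10 was higher, beside 12.8% of all genes, and 0 were lower. Of the 2 induced catalytic genes, Psmb10 was higher, as most of this list was, by 0.30, below the probe-set error of 0.31. Psmb9 was level, at 0.01. The interferon-induced activator genes were at −0.21 for Psme1 and −0.04 for Psme2, the latter of uncertain direction.

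**Figure D5:**
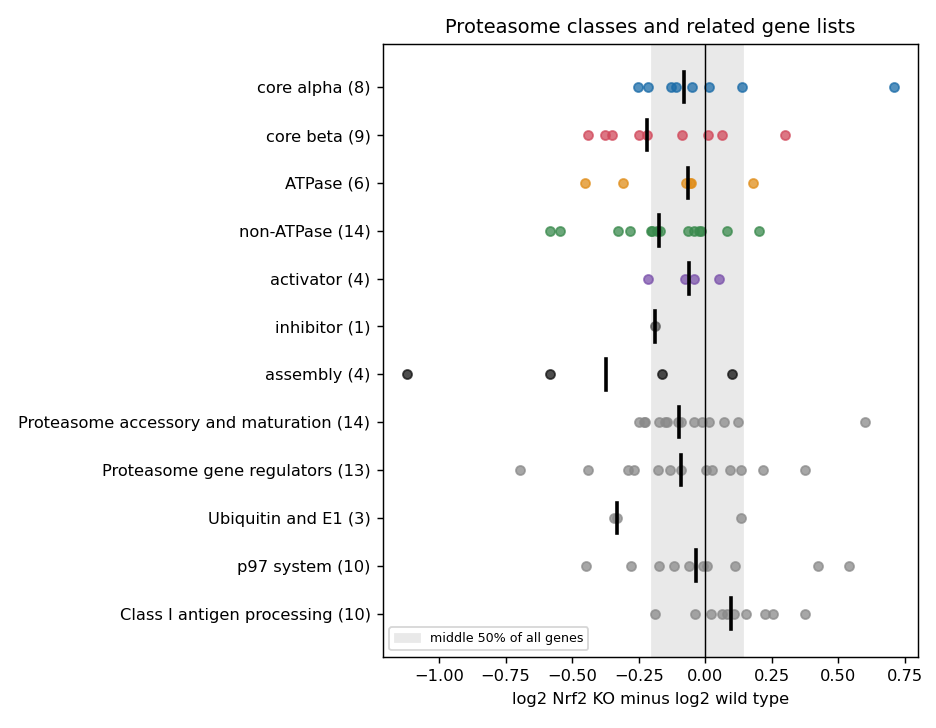
Log2 Nrf2 KO minus log2 wild type (horizontal axis) of each gene past the level filter, by proteasome class in colour and by related gene list in grey, with the number of genes in brackets. Black bars are medians, and the grey band is the middle 50% of all genes past the filter. The assembly class has the lowest median, −0.37, and class I antigen processing the highest, 0.09.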

How the data were processed

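The authors deposited 1 value per probe set and array, 28853 on each, taken here as log2 intensity because the values reach 13.8. The submitters' processing notes name Partek; how background, normalization and probe summary were handled is not given in the sources used here. Sorted, both arrays' values differ by at most 0.0866, as after quantile normalization, so a shift of all genes could not be seen. Amplification of small RNA amounts, done with NuGEN Ovation kits per the labels' protocols, can distort single genes.

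Probe sets with 1 symbol (21789) were averaged per gene. All 47 members matched the GRCm38.p6 gene table by Entrez ID. With 1 array per genotype no test was run, the number of arrays limits precision, and genes were counted by size (1.2-fold, 1.5-fold, 2-fold). The members, the lists and the naming rule (every member; list genes at least 1.5-fold different or among the 4 largest) were chosen with earlier results of these data known. One beta gene is not reported here. Pomp, Sem1 and Vcp were named for their role, outside that rule. Alternatives covered normalization, level filter, probe set choice and grouping. The steps were tested on simulated data with noise below the probe-set error, which checks the calculation and not the size calls in these arrays. Software was Python 3.11.15, numpy 2.4.6, pandas 2.3.3 and statsmodels 0.14.6.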

Additional observations from a re-analysis of the deposited data

How the results depend on the processing

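No paired analysis was possible because each genotype has 1 array. Median centring, quantile normalization, loess on level and the brightest probe set per gene left the median of all members between −0.15 and −0.10, with 33 to 35 members lower and 10 to 12 at least 1.2-fold lower. Of 46 members past the filter, 2 changed sign under these 4 settings, Psmd12 and Psmd4. With the brightest probe set, Psmc1 stood at −0.25 and the ATPase median at −0.16, because the 2 Psmc1 probe sets differ in sign. The assembly median was −0.59 at the stricter level filter of the 75th percentile, which leaves 3 genes, −0.54 with Psmd5, Psmd9 and Psmd10 added, −0.36 with Pomp as well, and −0.16 without Psmg4; the non-ATPase median without those 3 genes was −0.063. The core alpha median became a mean of 0.013, set by Psma8. Without the tissue-restricted and induced subunits, here Psma8, Psmb9, Psmb10 and the activators Psme1 and Psme2, the median of all members was −0.16. Without the 7 chaperone genes it was −0.077, and 7 members were at least 1.2-fold lower in place of 11. At 1.5-fold 2 members were lower and at 2-fold 1. The alternatives without the 7 chaperone genes, with Pomp and without Psmg4 were chosen after seeing the data. A difference of a single gene near the probe-set error of 0.31 is not resolved by 1 array per genotype.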
